A study of Mus musculus with 6 samples.

Results

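The fatty acid elongases and desaturases of the liver were examined as 10 genes, found by exact gene symbol among the 24421 genes of the deposited table. They were 5 elongase genes (*Elovl1*, *Elovl2*, *Elovl3*, *Elovl5* and *Elovl6*), 3 genes of the *Fads* family (*Fads1*, *Fads2* and *Fads6*) and 2 stearoyl-CoA desaturase genes (*Scd1* and *Scd2*). Hepatic mRNA had been sequenced from 3 WT mice and 3 *Pai-1*+/- mice, which are heterozygous for the deficiency. All were C57BL/6 by the labels and C57BL/6J by the methods. They were 21 weeks old by the labels, whereas the study's figure legend gives a slightly lower age. All ate standard chow with free access to food and, by the study's methods, were male. The *Pai-1*+/- mice came from crosses of *Pai-1*-/- with WT mice, so the deficiency was present in every cell and from conception. The columns of the per-animal count table could not be tied to a genotype and were not used, nor was the authors' own comparison of the genotypes. The values below are therefore levels averaged by the authors over all libraries, without a difference between genotypes, a value per mouse or a measure of spread.

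Fatty acid elongases catalyse the first and rate-limiting reaction of the cycle that lengthens fatty acids in the endoplasmic reticulum, and each prefers certain chain lengths and degrees of unsaturation. Desaturases introduce double bonds with electrons carried by cytochrome b5. Stearoyl-CoA desaturases make oleate and palmitoleate from saturated fatty acids, whereas the enzymes of *Fads1* and *Fads2* act with those of *Elovl5* and *Elovl2* on the route from dietary linoleate and alpha-linolenate to arachidonate and docosahexaenoate. The liver is a main site of both activities and exports their products in lipoproteins.

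The unit throughout is the mean normalised count, which is the number of reads counted for a gene in each library, divided by the library's DESeq2 size factor and averaged. Because long transcripts yield more reads, levels of different genes were compared only per kilobase of exon, with all annotated exons of a gene merged. Of 12971 genes with a mean normalised count above 10, 12499 matched a single gene of the annotation by symbol and were ranked by level per kilobase. Their median was 94.6 per kilobase. All 10 elongase and desaturase genes had a mean above 10 and a single match. Together they held 0.718% of the summed mean normalised counts of the table.

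These genes fell into a high and a low set in liver. *Scd1* stood at the top, followed with merged exons by *Elovl5*, *Elovl2*, *Elovl3*, *Fads1* and *Fads2*, and these 6 genes were all within the highest 5% of ranked liver genes per kilobase. *Elovl1*, *Elovl6*, *Fads6* and *Scd2* lay outside that range, and *Scd2* alone was under the median of the genes ranked by merged exons. The step between *Fads2* and *Elovl1*, the last of the high set and the first of the low set, was 9.81-fold per kilobase of merged exon and the largest between neighbours in the order. With the longest transcript it was 6.82-fold. With the coding length it fell between *Fads2* and *Elovl6* and was 4.82-fold, close to the next step of 4.25-fold from *Fads6* to *Scd2*. *Elovl3* and *Fads1* also changed places, with a ratio of 1.30 with merged exons, 0.985 with the longest transcript and 0.883 with the coding length. The range from *Scd1* to *Scd2* was 754-fold.

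**Figure D1:**
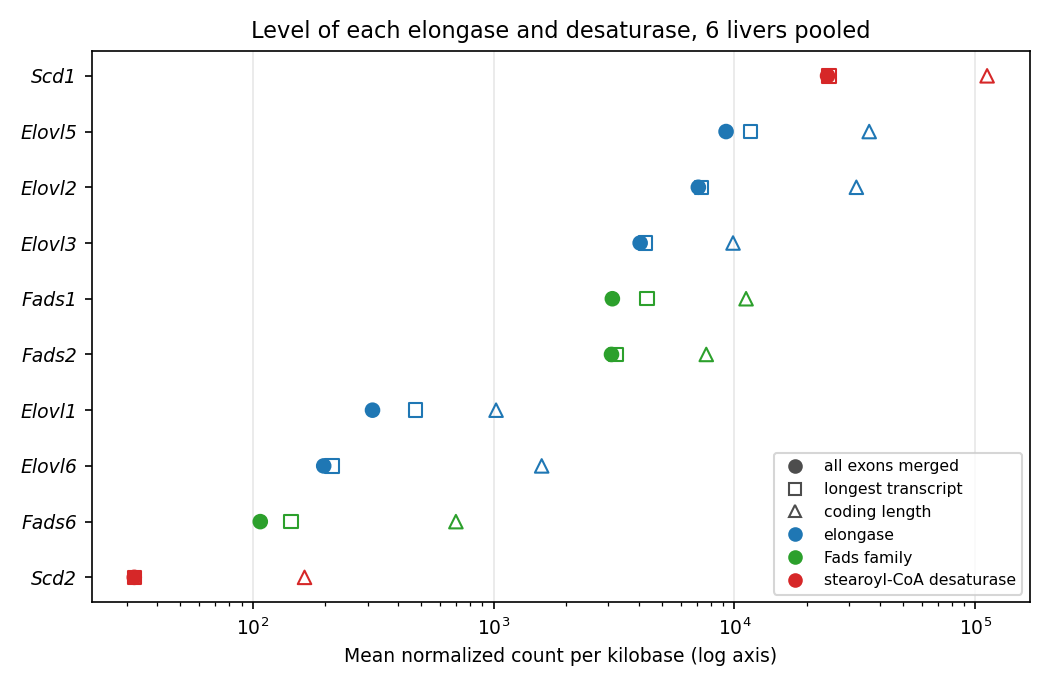
Mean normalised count per kilobase of each gene on a log axis, pooled over the 6 livers, with 3 definitions of gene length (filled circle, all exons merged; square, longest transcript; triangle, longest coding sequence) and one colour per enzyme class. No error bars are drawn because the values are the authors' means. The 6 genes from *Scd1* to *Fads2* lie between 3087 and 24341 per kilobase with all exons merged, and the lower 4 lie between 32.3 and 315.

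*Scd1*, the main hepatic stearoyl-CoA desaturase, lies on the minus strand of chromosome 19 (GRCm38, chr19:44394455-44407879), and its longest coding sequence encodes 355 amino acids. Its mean normalised count was 119077, or 0.396% of all counts of the table. Per kilobase the level was 24341, the 63rd highest of the ranked genes and 257 times their median. For scale, the level per kilobase of *Alb*, which encodes albumin and was the highest gene of the table on this scale, was 37.8 times that of *Scd1*, and 10.6 times with the coding length, on which *Scd1* ranked 24th. *Scd1* alone accounted for 47.2% of the level per kilobase summed over the 10 genes.

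*Scd2*, the related enzyme known mainly from brain and from newborn tissues, had a mean normalised count of 176 and a level of 32.3 per kilobase. It took 0.132% of the summed level per kilobase of both desaturases, and *Scd1* took 99.9%. The genes are alike in size, with 4892 bases of merged exon in *Scd1* and 5464 in *Scd2*, 6 exons in each and 355 and 358 amino acids. The choice of length therefore hardly moved the ratio of *Scd1* to *Scd2*, which was 754 with merged exons, 762 with the longest transcript and 681 with the coding length.

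Both genes belong to a cluster of 4 *Scd* genes on chromosome 19. The start of *Scd4* lies 74.8 kb from that of *Scd1*, the start of *Scd2* 114 kb and the start of *Scd3* 205 kb. *Scd1* is on the minus strand and the other members of the cluster on the plus strand. *Scd3* and *Scd4* had mean normalised counts of 4.33 and 1.79, under the minimum of 10, and levels of 1.22 and 0.475 per kilobase. High expression in this cluster thus belonged to *Scd1*, with *Scd2* 26.5 times above *Scd3* per kilobase, or 40.9 times with the coding length, and *Scd4* lowest.

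Reads of near-identical genes can be lost or misassigned, so stretches of 75 bases, the length of the reads, were compared between annotated transcripts on both strands. Of the distinct 75-base stretches of *Scd1*, 3.15% also occurred in another gene, most often in *Scd3* (2.27%) and *Scd2* (1.62%). In *Scd2* the share was 1.78%, in *Scd3* 3.20% and in *Scd4* 1.62%. How far misassigned *Scd1* reads entered the 176 counts of *Scd2* was not tested.

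**Figure D2:**
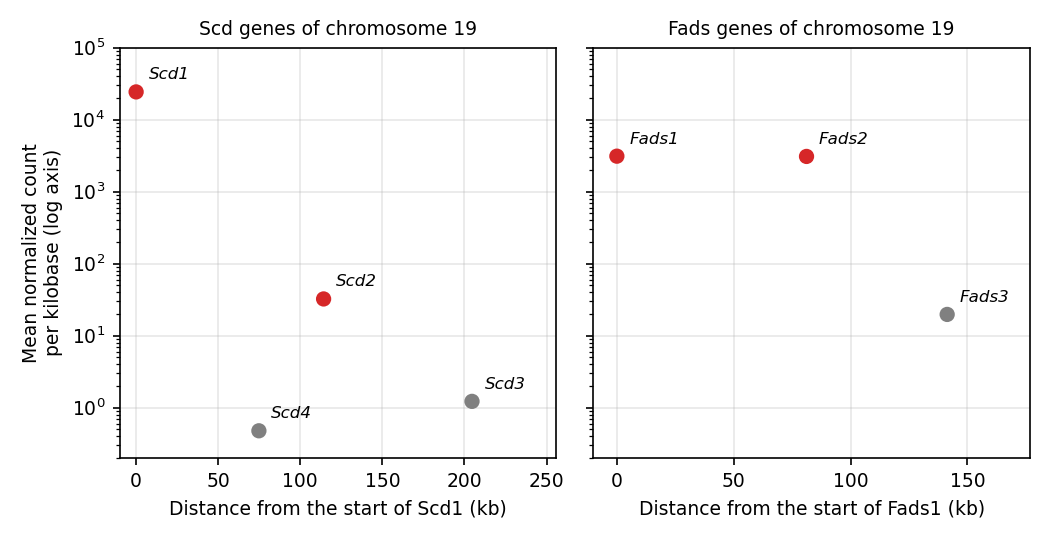
Mean normalised count per kilobase on a log axis against the distance between gene starts in kilobases, for the *Scd* genes (left, from *Scd1*) and the *Fads* genes (right, from *Fads1*) of chromosome 19; members are red and the further genes of each cluster grey. Lengths are those of all exons merged. *Scd1* lies far above its 3 neighbours, whereas *Fads1* and *Fads2* are level with each other on this scale and *Fads3* is at 19.7. With the coding length *Fads1* is 1.46 times *Fads2*.

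The 5 elongases summed to 20880 per kilobase, or 40.5% of the level of all 10 genes. *Elovl5* and *Elovl2*, both of which elongate polyunsaturated fatty acids, made up 44.2% and 33.9% of the elongase level. *Elovl3*, which extends saturated and monounsaturated chains, added 19.4%, but 12.2% with the coding length and 11.3% of counts not divided by length. The remaining 2 elongases were minor, with *Elovl1* at 1.51% and *Elovl6* at 0.945%, or 1.27% and 1.96% with the coding length.

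*Elovl5* (chr9:77917364-77984519, plus strand, 299 amino acids) had a mean normalised count of 32500 and a level of 9228 per kilobase, which ranked 151st. *Elovl2* (chr13:41182381-41220405, minus strand, 292 amino acids) followed with 28080 counts and 7080 per kilobase, ranked 198th. *Elovl5* was 1.30 times *Elovl2* with merged exons, 1.60 times with the longest transcript and 1.13 times with the coding length. Values per mouse were not used, so whether these neighbours differed beyond the spread between animals was not tested.

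*Elovl3* (chr19:46131897-46135694, plus strand, 271 amino acids) is the most compact gene of the group, with 4 exons within 3.80 kb. It had a mean normalised count of 8019 and a level of 4060 per kilobase, ranked 335th. It is known as an elongase of brown fat and skin. Of the 5 adipocyte markers, *Adipoq*, *Plin1*, *Lep* and *Retn* had mean normalised counts between 0.866 and 7.87, and *Cfd* was at 79.2. Summed per kilobase, the adipocyte list reached 94.1, and its part in the levels of the 10 genes was not tested.

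*Elovl6*, which converts palmitate to stearate and so makes a substrate of *Scd1*, had a mean normalised count of 1269. Its gene (chr3:129532355-129638495, plus strand) spans 106 kb and has 6431 bases of merged exon, of which 12.5% are coding, the smallest coding share of the 10 genes. The level was 197 per kilobase, 2.09 times the median of the ranked genes and in the highest 32.9%. *Scd1* stood 123 times above it with merged exons and 70.6 times with the coding length.

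*Elovl1*, an elongase of saturated and monounsaturated very long chains (chr4:118428093-118432953, plus strand, 279 amino acids), had 858 counts and 315 per kilobase. It was 1.59 times *Elovl6* per kilobase of merged exon and 0.647 times per kilobase of coding sequence, so the order of these neighbours was not fixed. *Elovl1* shares 53 exonic bases with *Cdc20* on the other strand, or 1.94% of its exons, and *Cdc20* had a mean normalised count of 7.04.

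**Figure D3:**
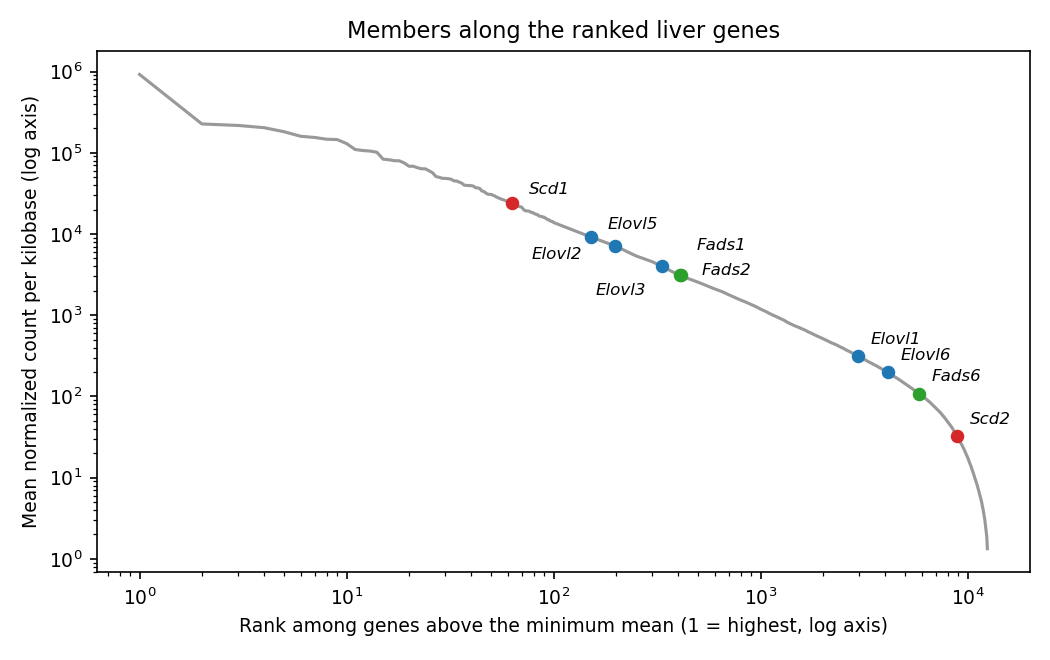
Level per kilobase against rank, both on log axes, for the 12499 ranked genes (grey line) with the 10 elongase and desaturase genes marked (blue, elongases; green, *Fads* family; red, *Scd*). *Scd1* is at rank 63, 5 further genes are between ranks 151 and 411, and the lowest 4 begin at rank 2969.

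Stretches of promoter are shown for *Elovl5* and *Elovl2*, which lead the elongases, and for *Elovl1* and *Elovl6*, which close them in an order that depends on the length. The sequences are those of RefSeq on GRCm38.p6, 5′ to 3′ on the strand of the gene, and end where the annotated gene begins. Capitals mark the CCAAT box (CCAAT), the E-box (CACGTG), the sterol regulatory element core (TCACNCCAC), the GC box (GGGCGG) and the TATA box (TATAAA), on either strand.
Elovl5 (chr9:77917115-77917363, plus strand): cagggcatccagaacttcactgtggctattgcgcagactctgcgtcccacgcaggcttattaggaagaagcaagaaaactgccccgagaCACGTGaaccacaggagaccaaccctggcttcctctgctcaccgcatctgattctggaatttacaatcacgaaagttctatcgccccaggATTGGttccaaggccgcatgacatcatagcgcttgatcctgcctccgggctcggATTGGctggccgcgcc
Elovl2 (chr13:41220406-41220653, minus strand): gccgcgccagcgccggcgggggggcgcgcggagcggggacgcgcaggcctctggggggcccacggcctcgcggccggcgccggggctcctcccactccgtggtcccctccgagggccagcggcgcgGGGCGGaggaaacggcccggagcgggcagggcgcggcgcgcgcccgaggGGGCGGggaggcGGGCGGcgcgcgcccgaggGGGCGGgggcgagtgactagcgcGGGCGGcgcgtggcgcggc
Elovl6 (chr3:129532136-129532354, plus strand): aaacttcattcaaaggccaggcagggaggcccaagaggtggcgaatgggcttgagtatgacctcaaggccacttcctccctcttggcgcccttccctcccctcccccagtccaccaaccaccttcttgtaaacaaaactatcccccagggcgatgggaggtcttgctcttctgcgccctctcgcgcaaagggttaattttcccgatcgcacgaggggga
Elovl1 (chr4:118427843-118428092, plus strand): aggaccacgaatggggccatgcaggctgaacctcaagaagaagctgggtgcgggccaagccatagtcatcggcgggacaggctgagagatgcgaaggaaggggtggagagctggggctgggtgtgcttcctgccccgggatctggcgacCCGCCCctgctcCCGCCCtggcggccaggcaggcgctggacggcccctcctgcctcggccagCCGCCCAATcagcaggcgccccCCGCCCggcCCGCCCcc

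The *Elovl5* stretch held CCAAT boxes beginning 71 and 17 bases before the RefSeq start and an E-box at 161. The *Elovl2* stretch held 5 GC boxes and no CCAAT box, and 87.2% of its 250-base window was G or C, against 55.6% for *Elovl5* and 56.4% for *Elovl6*. None of the 5 motifs occurred in the *Elovl6* stretch, whereas that of *Elovl1* held 5 GC boxes and 1 CCAAT box, which overlaps a GC box. The motifs of the lower elongases thus ranged from none to as many GC boxes as in *Elovl2*. Over 250-base windows, promoters were found for 6 of the 10 genes (8 windows, as *Elovl1* and *Elovl2* have 2 each). None was found for *Scd1*, *Scd2*, *Fads1* or *Elovl3*, so the counts below do not cover them. In the *Fads2* window and the *Elovl2* window that is not printed, only 7 bases lay upstream of the annotated gene. The *Elovl1* window that is not printed lay within the gene. The CCAAT box occurred in 2 of these 8 windows and in 33.8% of all 32851 promoter windows. The E-box occurred in 1 of 8 and in 6.02% of all, and the GC box in 5 of 8 (4 of 6 genes) and in 32.7%. The sterol regulatory element core occurred in 0 of 8 and in 1.05%, and the TATA box in 0 of 8 and in 12.4%. The GC boxes of *Fads2*, of *Fads6* and of the *Elovl1* window that is not printed lay within the annotated gene, downstream of its start. These matches describe the letters in the windows only.

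*Fads1* and *Fads2* were expressed at nearly the same level per kilobase of merged exon, whereas *Fads1* was higher with the other lengths. *Fads1*, which makes arachidonate and eicosapentaenoate from their immediate precursors (chr19:10182888-10196877, plus strand, 447 amino acids), had a mean normalised count of 14981 and a level of 3113 per kilobase, ranked 407th. *Fads2*, which acts first on linoleate and alpha-linolenate (chr19:10062765-10101746, minus strand, 444 amino acids), had 10173 counts and 3087 per kilobase, ranked 411th. Their ratio was 1.01 with merged exons, 1.34 with the longest transcript and 1.46 with the coding length. *Fads1* has 8 annotated transcripts, the most of the group, and its merged exons of 4812 bases exceed its longest transcript of 3460, which is where these scales part.

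Their starts lie 81.1 kb apart. *Fads3*, the third gene of the cluster, starts 141 kb from *Fads1* and had a mean normalised count of 74.6, or 19.7 per kilobase. Per kilobase of merged exon, *Fads2* was 157 times and *Fads1* 158 times above *Fads3*. With the longest transcript these ratios were 160 and 214, and with the coding length 138 and 202. No 75-base stretch of *Fads1* or *Fads2* occurred in another annotated gene.

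*Fads6*, a family member on chromosome 11 (chr11:115279622-115297663, minus strand, 342 amino acids), had 716 counts and 108 per kilobase, 1.14 times the median of the ranked genes. *Fads1* was 28.9 times above it with merged exons and 16.0 times with the coding length. Its coding share, 15.4% of merged exon, was the smallest after that of *Elovl6*. It shared 0.788% of its 75-base stretches with other genes, and *Elovl6* shared 2.05%.

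The further members of these families that were listed for comparison were scarce in liver, with one exception. Of 7 further genes, 3 had a mean normalised count above 10. *Degs1*, the dihydroceramide desaturase of sphingolipid synthesis, reached 1148 per kilobase, and *Fads3* and *Elovl7* were at 19.7 and 3.68. *Degs2* had a mean of 9.96, and *Elovl4*, the elongase of retina and skin, was listed at 0.

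All 6 genes listed for the other steps of the elongation cycle had means above 10, and 3 of them were within the highest 5% of ranked genes. *Hsd17b12*, the ketoacyl reductase, was at 2386 per kilobase and *Tecr*, the enoyl reductase, at 2313. Of the 4 dehydratase genes, *Hacd3* was at 3445, *Hacd2* at 315, *Hacd1* at 83.2 and *Hacd4* at 2.44. The level per kilobase summed over the 5 elongases was 8.75 times that of *Hsd17b12*, 6.06 times that of *Hacd3* and 9.03 times that of *Tecr*. With the coding length these ratios were 13.2, 9.40 and 17.3, and with the longest transcript 7.93, 6.95 and 6.01.

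Among the genes of cytochrome b5 and its reductases, *Cyb5a*, the microsomal cytochrome b5, was at 9733 per kilobase and *Cyb5b*, the outer mitochondrial form, at 2095. *Cyb5r3*, the main cytochrome b5 reductase, was at 1926, while *Cyb5r4* and *Cyb5r1* were at 118 and 38.2, and *Cyb5r2* had a mean normalised count of 0.839. Per kilobase of merged exon *Scd1* was above each of these genes and 2.50 times *Cyb5a*. *Scd1* was 0.964 times *Cyb5a* with the longest transcript and 1.49 times with the coding length. *Cyb5a* was 1.05 times *Elovl5* with merged exons, 2.19 times with the longest transcript and 2.07 times with the coding length.

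The last steps of docosahexaenoate synthesis take place in peroxisomes after *Elovl2* has made the longer precursor. *Scp2* was at 22033 per kilobase, *Acaa1b* at 16416, *Hsd17b4* at 6391 and *Acaa1a* at 1292. These 4 genes also serve the general oxidation of fatty acids in peroxisomes. Per kilobase of merged exon, each of them was below *Scd1*, while with the longest transcript *Scd1* was 0.849 times *Scp2*.

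**Figure D4:**
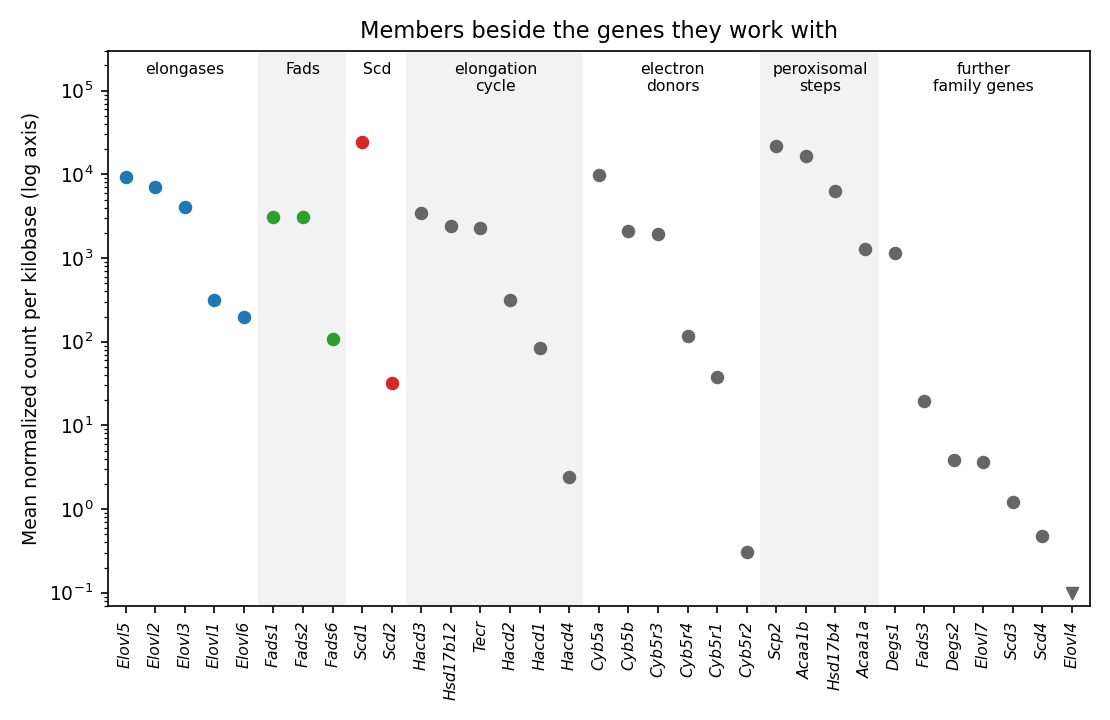
Mean normalised count per kilobase (log axis) of the 10 elongase and desaturase genes in colour and of 23 further genes of the pathway in grey, grouped by role and ordered by level within each group. The downward triangle is *Elovl4*, which was listed at 0 and is drawn at 0.1. Lengths are those of all exons merged. *Scd1* is the highest on this scale, followed by *Scp2* and *Acaa1b*; with the longest transcript *Scp2* (29026) and *Cyb5a* (25559) are above *Scd1* (24644).

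The tissue label was checked against 5 hepatocyte markers, all of which (*Alb*, *Apoa1*, *Ttr*, *Serpina1c* and *Cyp3a11*) were within the highest 1% of ranked genes. Summed per kilobase, the hepatocyte list reached 1280177, the Kupffer cell list 2724, the stellate list 1292, the red cell list 889, the endothelial list 773, the cholangiocyte list 140 and the lymphocyte list 43.9. In whole liver a level per cell cannot be told apart from the number of cells that express the gene. Except for the red cell list, each sum covers several markers and is not like the level of a single gene. The red cell sum is that of *Alas2* alone, as *Hbb-bs* and *Hba-a1* were listed at 0. *Elovl1*, *Elovl6* and *Fads6* lay between the lymphocyte and Kupffer cell sums, and *Scd2*, at 32.3 per kilobase, was below all of the sums. For these genes the part of other cells was not tested.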

How the data were processed

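Liver RNA of 3 WT and 3 Pai-1+/- mice was made into mRNA libraries and sequenced as single-end reads of 75 bases. The authors aligned them to mm10 with STAR and ran DESeq2 in the RNA Express application; HOMER is also named in the submitters' processing notes. Tool versions, annotation, filters and strand setting are not given in the sources used here. From the authors' deposited results, 1 signal was used, the normalised count of each gene (reads over the library's size factor) averaged across libraries. Its sum, 30045982, stands for an average library.

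The columns of the authors' comparison (fold change, standard error, test statistic, p-value, adjusted p-value and status) were not used. The 6 per-animal count columns carry numbers that match no sample label, and none was used. The planned edgeR test of the genotypes was therefore not run. No depths per sample, SDs, tests or fits that leave out a mouse were computed.

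Lengths and coordinates came from GENCODE M21 (GRCm38, the assembly of mm10), joined by symbol, which matched 96.4% of genes above a mean of 10. Levels per kilobase used merged exons, with the longest transcript and the longest coding sequence as alternatives. Calculations were tested on constructed data. Python 3.11.15, pandas 2.3.3, NumPy 2.4.6 and Matplotlib 3.10.9 were used. The genes named are the members, listed pathway genes, cell type markers and genes that share exons with a member. Members and lists were chosen with earlier results of these data known, and the motifs and the globin genes after values were seen. The results of some listed genes are not reported here.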

Additional observations from a re-analysis of the deposited data

How the results depend on the processing

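The 6 genes in the highest 5% of ranked genes numbered 6 also with the longest transcript, with the coding length and with all 23336 matched genes ranked. The highest 1% held 1 of the 10 genes with merged exons and with the longest transcript, but 3 with the coding length and 3 when all matched genes were ranked. The genes added in this last setting had means of 10 or less. They lowered the place in percent of all 10 genes to between 0.536 and 0.539 times, so this setting was a weak check of both counts. With the coding length, 6 of the 10 genes kept their place in the order of levels, and with the longest transcript 8 did. The coding length raised all 10 levels by between 2.43 and 8.03 times, since it is shorter than the merged exons by construction, and the longest transcript by at most 1.51 times. Left undivided by length, mean normalised counts moved 3 of 10 shares within an enzyme class by over 1.5 times, and the coding length did so for 3, those of *Elovl3*, *Elovl6* and *Fads6* in each case.

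No paired analysis was possible because no column of values was tied to a mouse or to a genotype by its name. For the same reason other settings of the genotype test (upper-quartile factors, DESeq2 size factors, no filter, leaving out each mouse) were not run. With these columns unused, the depth of single libraries and the spread between mice were not examined, and no interval is given for any level.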

Other observations

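The regulators listed for these enzymes were all expressed, with 8 of 8 above a mean normalised count of 10. *Insig2*, which retains the SREBP complex in the endoplasmic reticulum, was the highest at 4305 per kilobase and 2.14 times *Insig1* at 2015. *Ppara*, the receptor that drives fatty acid oxidation genes, was at 2543. *Mlxipl*, which encodes the carbohydrate-responsive factor ChREBP, was at 1026, and *Nr1h3*, the liver X receptor alpha, at 939 against 386 for *Nr1h2*. *Srebf1*, the sterol regulatory factor of fatty acid synthesis, was at 749 and 3.29 times *Srebf2*, the factor of cholesterol synthesis, at 228.

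The globin genes *Hbb-bs* and *Hba-a1* were listed at 0, whereas *Alas2*, the erythroid enzyme of heme synthesis, had a mean normalised count of 2136. Of their 75-base stretches, 51.5% in *Hbb-bs* and 67.9% in *Hba-a1* also occur in a neighbouring globin gene, compared with 3.15% or less in each of the 10 elongase and desaturase genes. The cause of the zeros was not tested.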
